A study of Mus musculus with 36 samples.

Results

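The MSR-dCas9-Activator line of mouse embryonic fibroblasts (MEFs) was compared before and after induction of its chromatin effector. Its members are the 3 uninduced and the 3 induced RNA libraries of that line, taken by their labels, so 6 of the 36 libraries of the series. The line carries, on a PiggyBac plasmid, dCas9 fused to the VPR activator under a doxycycline-inducible TRE promoter, together with a constitutively expressed guide RNA directed at the major satellite repeats (MSR). The line is a mixed, hygromycin-selected culture, so expression of the fusion can vary between cells. The uninduced cells received no doxycycline, and the induced cells received 10 ng/ml for 6 h. Each group held 3 biological replicates. The MSR-dCas9-Control line, used here as the background, carries the same guide and dCas9 without an effector and was sampled uninduced and after 10 ng/ml doxycycline for 24 h, also with 3 libraries each. The length of induction and the effector therefore change together between the lines and cannot be told apart.

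Major satellite repeats are tandem arrays that make up the pericentric heterochromatin of mouse chromosomes, which is bound by HP1 proteins, carries trimethylated histone H3 lysine 9 and is transcribed at low levels in somatic cells. Cas9 without nuclease activity (dCas9) binds where its guide pairs with DNA and does not cut. VPR is a fusion of the VP64, p65 and Rta activation domains, which recruit coactivators and raise transcription near the bound site. In the repeat annotation the major satellite is listed as GSAT_MM and the minor satellite of the neighbouring centromere as SYNREP_MM.

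Total RNA was sequenced, and both genes and repeat families were counted in the same libraries. The 6 libraries held from 47724807 to 68875383 counts in all. Levels are given as normalised counts, which are counts scaled between libraries by TMM factors (trimmed mean of M values) computed on the genes. Fold changes, standard errors (SE) and p-values come from the quasi-likelihood test of edgeR, and p-values were adjusted by the Benjamini-Hochberg method over all genes or all repeat families tested. One library stood apart. Induced replicate 2 was the induced library nearest to the uninduced mean in 593 of the 624 genes called higher and in 1588 of the 1693 called lower. The median log2 difference between induced and uninduced libraries of the same replicate number was 2.62, 1.79 and 2.68 over the raised genes and -1.65, -0.98 and -1.69 over the lowered genes. Of the 14 embryonic fibroblast markers, all but Thy1 had over 10 counts in 1 or more of the 6 libraries.

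The targeted satellite rose in every induced library. GSAT_MM was at 4331, 2275 and 3961 normalised counts in the 3 uninduced libraries and at 160223, 102932 and 1125040 in the 3 induced libraries. The groups did not overlap, and induced replicate 3 lay 10.9-fold above induced replicate 2. The fitted change was large and uncertain in size (log2 fold change 7.04, SE 1.03, adjusted p = 7.62e-04). Without induced replicate 3 the log2 fold change was 5.22. By replicate number the rise was 37.0-fold, 45.3-fold and 284-fold, and the two-sided exact permutation test over the 6 libraries gave p = 0.1, the smallest that 3 against 3 allows. SYNREP_MM was at 702, 402 and 444 uninduced and at 23485, 14899.5 and 22726 induced, and here the 3 induced libraries lay within 1.58-fold of each other (log2 fold change 5.30, SE 0.20, adjusted p = 1.06e-137). GSAT_MM took 0.00654% ± 0.00198 of all counts in the uninduced and 0.753% ± 0.898 in the induced libraries (SD, n = 3).

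In the Control line the same entries stayed low after 24 h of doxycycline. GSAT_MM was at 1507 ± 71.6 uninduced and 1413 ± 42.1 induced (SD, n = 3 each), and SYNREP_MM at 68.8 ± 6.47 uninduced and 75.8 ± 16.6 induced (SD, n = 3 each). The uninduced Activator libraries lay above both Control groups for either entry, with no overlap between libraries. The difference between the lines in the change on induction was 7.13 (log2) for GSAT_MM (adjusted p = 5.43e-03) and 5.18 for SYNREP_MM (adjusted p = 2.74e-69). Of the other 5 satellite entries tested, MurSAT1 also rose (log2 fold change 2.68, SE 0.70, adjusted p = 7.12e-04). MMSAT4 fell from 10318, 9941 and 9947 to 4878, 6681 and 5073 normalised counts (log2 fold change -0.86, SE 0.16, adjusted p = 1.75e-06), as did ZP3AR and SUBTEL_sa, with log2 fold changes of -0.64 and -0.66.

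**Figure D1:**
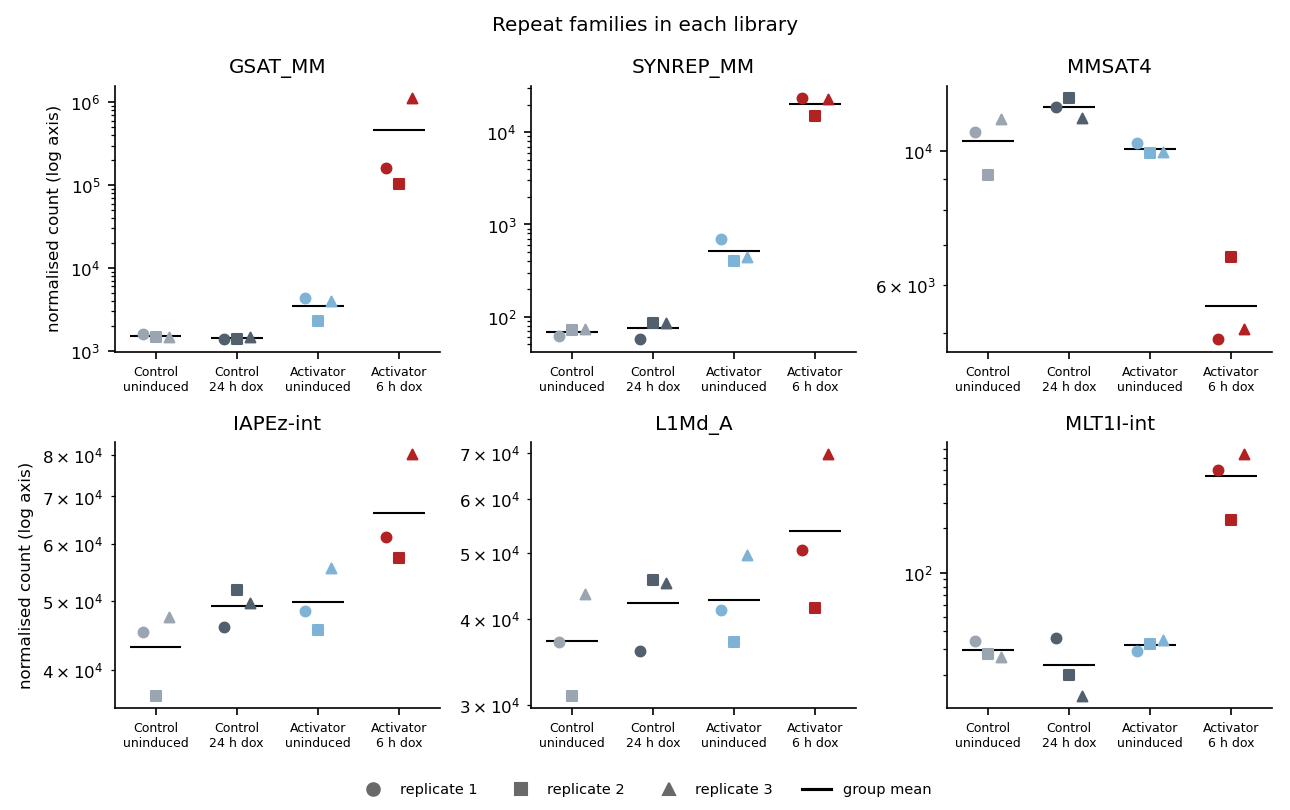
Normalised counts of 6 repeat families (log axis) in each library of the Control and Activator lines, uninduced and induced, with a symbol for each replicate number and a line at the group mean. GSAT_MM, SYNREP_MM and MLT1I-int sit far above every other library in the 3 induced Activator libraries, MMSAT4 sits below, and L1Md_A of the induced Activator libraries overlaps the uninduced ones.

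A set of predicted genes rose by as much as the satellite and in the same order of libraries. Gm10800 was at 1433, 449 and 1257 normalised counts uninduced and 79962, 51204 and 658411 induced (log2 fold change 7.41, SE 0.83, adjusted p = 1.44e-07). Gm11168 went from 66.8, 16 and 43.3 to 2600.3, 1346 and 27156, and Gm26870 from 229.8, 66.1 and 257 to 9998, 6029.6 and 79642. All 3, and also Gm10801 and Gm21738, were highest in induced replicate 3, like GSAT_MM. These gene models share sequence. Between 42% and 48.1% of the distinct 24-base words in the annotated transcripts of each of the 5 occurred in another of the 5 on either strand. Reads from near-identical copies may therefore be split or shared between them, and their individual values are uncertain. Gm11168 and Gm26870 lie at the start of the assembled sequence of chromosome 9 (GRCm38, chr9:3003346-3006948 and chr9:3000282-3038313), where all 9 genes with a mean above 100 in the first 0.1 Mb rose, a mean they reached through the induced libraries. Sfi1, which encodes a centrosomal protein, rose from 1018, 1183 and 1103 to 12584, 7962 and 16083 (log2 fold change 3.46, SE 0.25, adjusted p = 4.91e-11) and shared none of these words with the 5 gene models.

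Across genes, where fewer cells expressing a gene and less RNA per cell cannot be told apart, a fall was more often called than a rise among genes with a mean above 100, and a rise more often once that limit was dropped. A gene was called when its adjusted p was under 0.05, its log2 fold change lay beyond 1 and its mean over the 6 libraries was above 100 normalised counts. Of 28542 genes tested, 2317 (8.12%) were called, 624 higher (2.19%) and 1693 lower (5.93%). Among the 13496 genes with a mean above 100 this is 17.2% in all, 4.62% higher and 12.5% lower, and their median log2 fold change was -0.08. The raised genes changed more, with a median log2 fold change of 2.43 against -1.43 for the lowered ones. In 252 raised genes the change was beyond 3 on the log2 scale, as against 25 lowered genes. The raised genes were also scarcer, with a median of 62.4 normalised counts uninduced against 753 for the lowered genes. The 3 induced and 3 uninduced libraries did not overlap in 619 of the raised and 1635 of the lowered genes. Over all genes with a mean above 100, 61.2% did not overlap, 25.2% with the induced libraries higher. At any mean, 9887 of the 28542 genes tested (34.6%) passed the limits on p and fold, 5865 higher (20.5%) and 4022 lower (14.1%), so that many rises lay at low levels. A gene of low level enters the test mainly through the group in which it is higher.

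The balance between rises and falls also depended on the scaling. When libraries were scaled to the 13 mitochondrially encoded mRNAs in place of TMM, 380 genes were called higher and 4224 lower, and the median log2 fold change over the genes tested moved from 0.07 to -0.51. Without TMM factors 561 were higher and 1954 lower. Fold changes are therefore relative to the other genes, and a total change in RNA per cell was not measured.

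**Figure D2:**
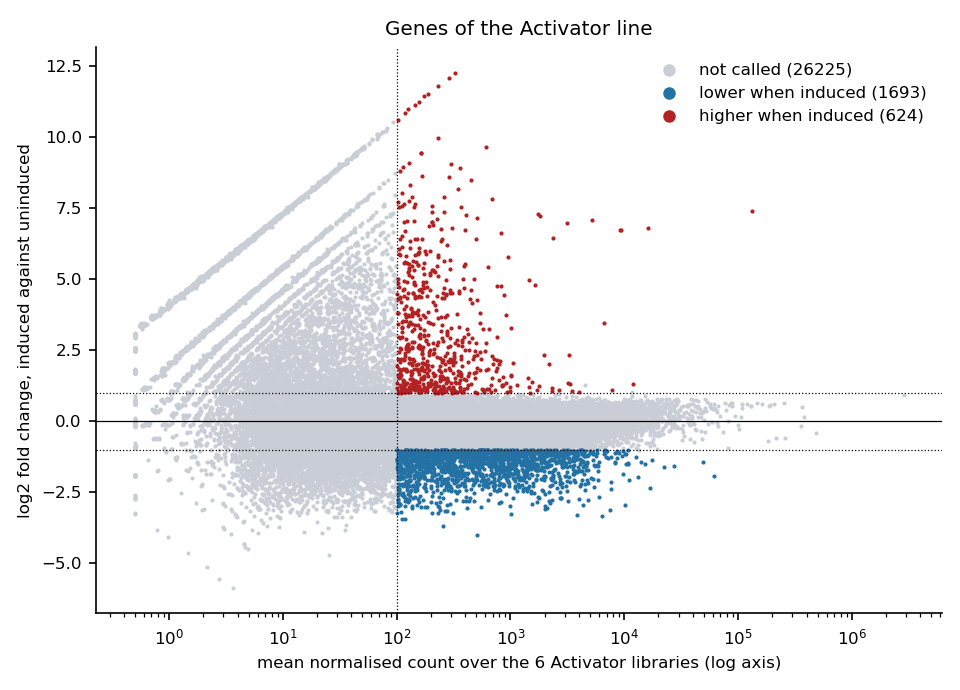
Each point is a gene tested in the Activator line, with its mean normalised count over 6 libraries (log axis; means under 0.5 are drawn at 0.5) against its log2 fold change on induction. The dotted lines mark the limits used for calls, and the 624 red points reach far higher values than the 1693 blue points reach below 0.

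The steepest rises were of genes without a count in any uninduced library of the line. The 10 genes with the largest fitted rise were all at 0 in the 3 uninduced libraries. A fitted fold change has no firm meaning against 0, so lower bounds are given against 3 counts per library. Ikzf1, which encodes the lymphoid transcription factor Ikaros, reached 809, 208 and 928 normalised counts when induced, at least 218-fold higher. Zdbf2, an imprinted gene, reached 759, 211 and 747, at least 192-fold higher. Dock2, a Rac activator of blood cells, reached 395, 129.6 and 415, at least 105-fold higher. In all 3 genes induced replicate 2 was the lowest of the induced libraries and still far above the floor. The others were Aldh1a2, an enzyme of retinoic acid synthesis, at 252, 57.1 and 310.5, the olfactory receptor genes Olfr859, Olfr1442, Olfr1443 and Olfr548-ps1, and the noncoding genes Gm3942 and 1700010J16Rik. Of the 624 raised genes, 36 had at most 3 counts in every uninduced library, and 29 of these also had at most 3 in every Control library.

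Promoters of the raised genes held about as many CpG dinucleotides as promoters at large, and fewer than those of genes with a mean above 100. Counted over the 250 bases before the start in the RefSeq table (GRCm38.p6), the median was 6 CpGs in 374 raised genes with a match, 16 in 1060 lowered genes, 16 in 9223 genes with a mean above 100 and 6 in all 32851 promoters in the table. At most 5 CpGs were found in 47.6% of the raised, 16.2% of the lowered and 12.4% of the expressed genes, and in 49.6% of all promoters. Raised genes reached a mean above 100 largely through the induced libraries, so the expressed genes are no like reference for them. Of the 29 matched genes with at most 3 counts in every uninduced library, 18 (62.1%) had at most 5 CpGs, with a median of 2. The promoters of a gene of each kind, Dock2 (4 CpGs, chr11:34783906-34784155, minus strand) and Zdbf2 (26 CpGs, chr1:63273019-63273268, plus strand), are shown. They are printed 5′ to 3′ up to the base before the RefSeq start, with each CG in capitals.
Dock2: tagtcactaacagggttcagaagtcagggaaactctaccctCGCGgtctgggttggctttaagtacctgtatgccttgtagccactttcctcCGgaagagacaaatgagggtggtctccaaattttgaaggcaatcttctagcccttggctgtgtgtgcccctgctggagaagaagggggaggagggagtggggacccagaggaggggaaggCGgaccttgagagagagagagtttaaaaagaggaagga
Zdbf2: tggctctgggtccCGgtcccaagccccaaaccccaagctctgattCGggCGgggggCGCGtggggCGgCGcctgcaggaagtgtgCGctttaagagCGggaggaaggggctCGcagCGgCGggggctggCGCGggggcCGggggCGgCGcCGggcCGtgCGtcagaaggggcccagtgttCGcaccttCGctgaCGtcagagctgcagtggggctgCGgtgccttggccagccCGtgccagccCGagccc

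Other raised genes belong to programmes of other tissues, at low levels. Olfactory receptor genes encode the odorant receptors of sensory neurons, and 17 of 1105 in the table were called higher and none lower. Of these genes 166 were tested and 17 had a mean above 100. Both limits are passed mainly by members that are high when induced, so these counts are no measure of the family. Without induced replicate 3, 10 were called. Of 35 germline genes silenced by DNA methylation 21 were tested, 4 had a mean above 100 and 3 of these rose, namely Meioc (log2 fold change 3.83, SE 0.30, adjusted p = 3.49e-11), Taf7l (log2 fold change 3.43, SE 0.31, adjusted p = 3.54e-10) and Stag3 (log2 fold change 1.12, SE 0.33, adjusted p = 0.00443). Meioc and Stag3 act in meiosis, and Taf7l in spermatogenesis. Without induced replicate 3 only 1 was called. None passed the test of the difference between the lines, whose limit on the mean also takes in the Control libraries. At any mean, 13 of the 21 passed the limits on p and fold as higher and none as lower, as against 20.5% of all genes tested. Of 33 genes of the two-cell embryo 27 were tested, and the 1 with a mean above 100, Eif1a, fell (log2 fold change -1.03). At any mean 16 of the 27 were higher and 2 lower.

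Several markers of other cell types were higher after induction, most of them at low levels. At a mean above 100, 2 endothelial, 1 neuronal and 1 skeletal muscle marker were called higher. At any mean the limits on p and fold were passed as higher by 6 of 8 macrophage markers tested, 5 of 8 endothelial, 1 of 6 epithelial, 3 of 6 neuronal, 3 of 7 skeletal muscle and 3 of 6 embryonic stem cell markers, as against 20.5% of all genes tested. The filter on low counts favours members that are high when induced, so these counts are a description. Pecam1, an endothelial adhesion molecule, rose from 11.6, 11 and 18.4 to 758, 212 and 769 normalised counts (log2 fold change 5.34, SE 0.48, adjusted p = 2.00e-09), and the endothelial receptor Tek from 57, 101 and 103 to 584, 385 and 716. Esam, an endothelial adhesion molecule too, was at 18.7, 16 and 19.5 and 135, 96.7 and 113 (log2 fold change 2.66, SE 0.33, adjusted p = 1.10e-07), while Cdh5, Tie1, Erg, Emcn and Kdr had at most 10 counts in every library. The summed level of the 10 endothelial markers listed was 99.8 to 158 uninduced and 731 to 1653 induced. Among the macrophage markers Ptprc, the leukocyte antigen CD45, was at 1.78, 1.001 and 1.08 and 34.6, 14.3 and 39.6 (log2 fold change 4.36, SE 0.69, adjusted p = 6.92e-06) and the integrin Itgam at 7.13, 3.003 and 1.08 and 69.2, 13.2 and 71.4 (log2 fold change 3.66, SE 0.60, adjusted p = 8.56e-06), with a sum over 10 markers of 575 to 591 uninduced and 585 to 927 induced. The 2 macrophage markers with a mean above 100, Cd68 and Csf1r, had log2 fold changes of -0.43 and 0.30 and were not called. The neuronal vesicle protein gene Syt1 rose (log2 fold change 3.40). Its call was lost without TMM factors, under the mitochondrial scaling and without induced replicate 3. Dcx and Slc17a6 were higher at low level (5.95 and 6.24), and Nefl and Nefm were at 0. The neuronal sum went from 1389 to 1531 down to 890.1 to 1178, with Tubb3 at 1447, 1350.4 and 1496 and 562, 913 and 751. The muscle gene Ttn rose (log2 fold change 2.14, SE 0.22, adjusted p = 1.07e-08), with Myod1 at 0 and a sum of 601 to 625 against 1242 to 2144. The epithelial sums were 115 to 155 and 116 to 145, and the stem cell sums 38.0 to 43.7 and 34.1 to 55.0. At most 10 counts in every library were found for 2 of the macrophage, 4 of the epithelial, 7 of the neuronal, 4 of the muscle and 8 of the stem cell markers. Whether cells of another type took part in these values was not tested.

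**Figure D3:**
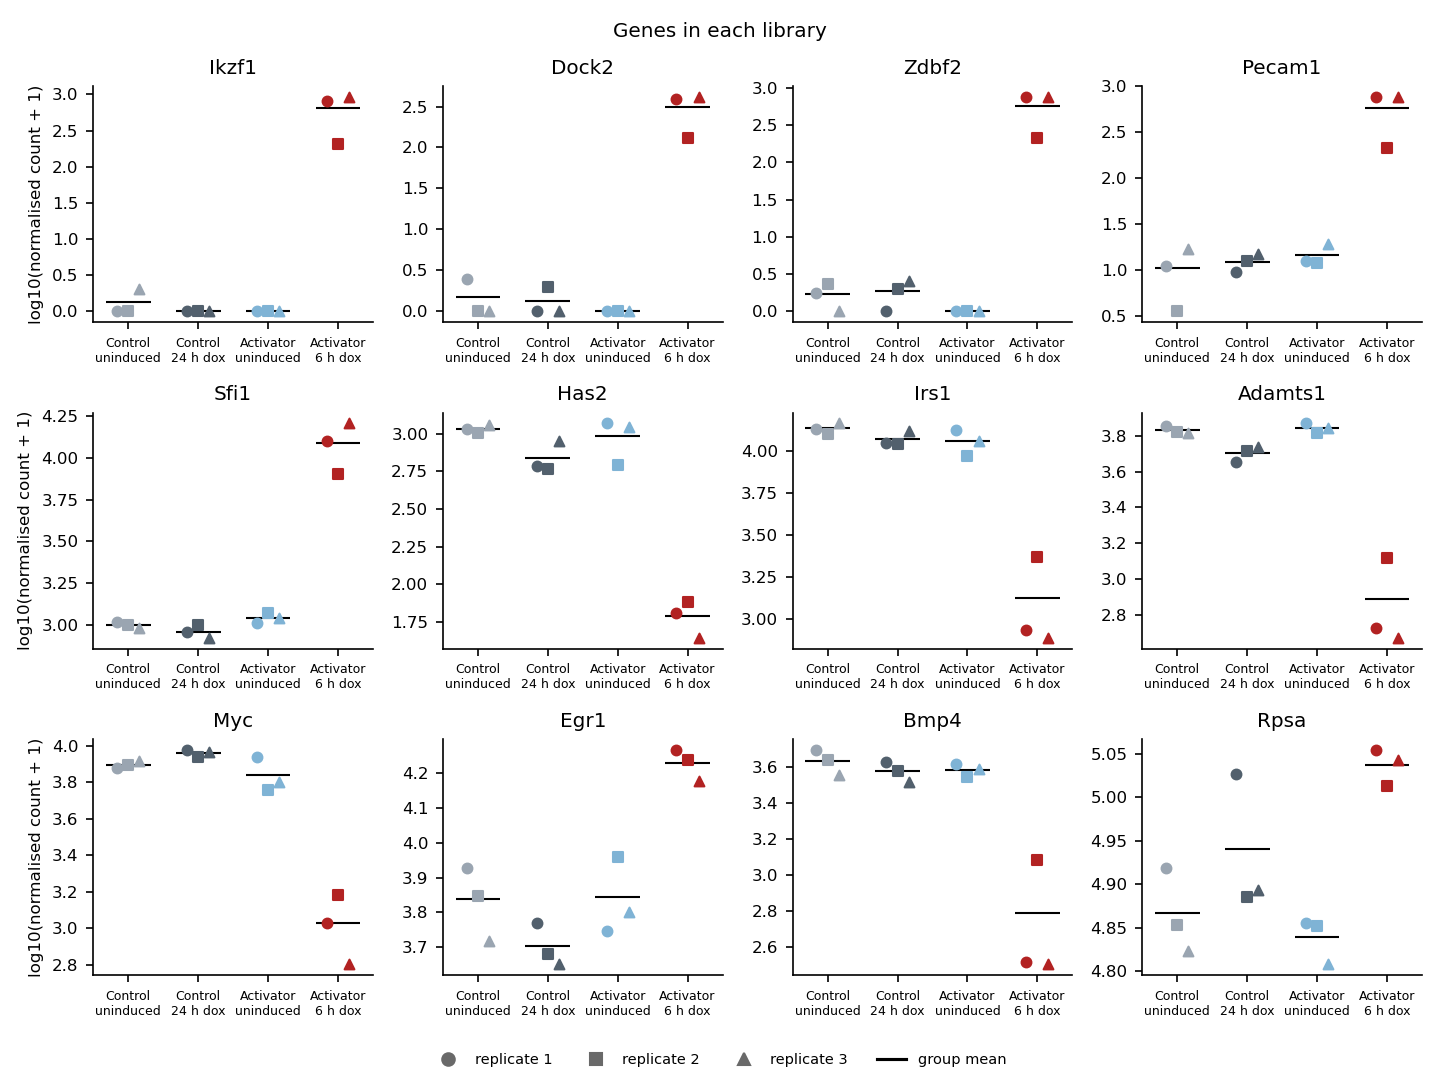
Normalised counts of 12 genes, as log10(count + 1), in each library of the Control and Activator lines, with a symbol for each replicate number and a line at the group mean. Ikzf1, Dock2 and Zdbf2 are at or near 0 outside the induced Activator libraries, Has2, Irs1, Adamts1, Myc and Bmp4 fall there, and induced replicate 2 (square) is nearest to the uninduced level in most panels.

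Has2, Irs1 and Adamts1 were among the 10 steepest falls. Has2, the main hyaluronan synthase of fibroblasts, went from 1174, 621 and 1102 to 63.5, 74.7 and 43 normalised counts (log2 fold change -4.002, SE 0.33, adjusted p = 5.11e-10), or 16-fold lower. Irs1, the adaptor of the insulin receptor, went from 13344, 9333 and 11490.5 to 868, 2351 and 775 (log2 fold change -3.32, SE 0.55, adjusted p = 2.32e-05). The secreted metalloproteases Adamts1 and Adamts5 fell from 7423, 6565 and 7003 to 530, 1303 and 467 and from 20581, 14275 and 18059 to 1778, 3831 and 1938. In these 4 genes each induced library lay below each uninduced one, and in the Control line the log2 fold changes were -0.66, -0.21, -0.44 and -0.31, none of them called. Among the other abundant genes, Csf1, the macrophage growth factor, fell by 2.36 on the log2 scale, the kinase gene Plk2 by 2.67 and the matricellular gene Ccn4 by 2.38. The long noncoding transcript 3110039I08Rik fell from 14303, 12455 and 13714 to 1418, 2269.9 and 1166. The remaining steep falls were of noncoding models with 1 or 2 exons (Gm28119, Gm42680, Gm43953, Gm26523 and Gm37644) and of 4933400A11Rik and Gm9747, with log2 fold changes from -3.70 to -3.23.

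The promoters of Irs1 (28 CpGs, chr1:82291440-82291689, minus strand) and Adamts1 (15 CpGs, chr16:85803114-85803363, minus strand) are shown as examples of steep falls, with the same marking as above.
Irs1: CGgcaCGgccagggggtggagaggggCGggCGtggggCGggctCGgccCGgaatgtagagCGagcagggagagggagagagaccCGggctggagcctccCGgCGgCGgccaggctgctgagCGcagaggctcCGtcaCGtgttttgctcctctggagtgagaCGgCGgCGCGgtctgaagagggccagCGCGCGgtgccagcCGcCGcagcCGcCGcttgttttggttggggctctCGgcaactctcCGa
Adamts1: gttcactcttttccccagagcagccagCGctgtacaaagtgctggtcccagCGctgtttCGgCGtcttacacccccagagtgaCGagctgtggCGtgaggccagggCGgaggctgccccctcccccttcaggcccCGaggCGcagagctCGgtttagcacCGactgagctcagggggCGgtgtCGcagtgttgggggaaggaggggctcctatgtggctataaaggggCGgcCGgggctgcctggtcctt

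Transcription factors of the mesenchyme fell as a group. Of 48 listed, 41 were tested and 34 had a mean above 100, of which 27 fell and none rose. The falls made up 79.4% of the 34, as against 12.5% of all genes with a mean above 100. Over those 34 the median log2 fold change was -1.52, beside -0.08 over all such genes. Osr1, a regulator of limb and kidney mesenchyme, fell from 1573, 1288 and 1318 to 124, 335 and 151 normalised counts (log2 fold change -2.89, SE 0.39, adjusted p = 1.29e-06). Sox4 fell from 1718, 3216 and 2668 to 241, 948 and 291, and induced replicate 2 was again the least changed. The skeletal regulators Runx2 and Sox9 fell (log2 fold changes -1.89 and -1.74), the libraries of Sox9 overlapping. Snai2 and Twist1, which drive epithelial-mesenchymal transition, had log2 fold changes of -2.23 and -1.33, and the hedgehog effectors Gli1 and Gli2 of -2.05 and -1.82. Among those 34 the largest value was 0.16, for Shox2, which was not called. At any mean 1 of the 41 tested passed the limits on p and fold as higher and 28 as lower. Of 11 Hox genes with a mean above 100 (39 listed, 28 tested), 5 fell, led by Hoxc13 (log2 fold change -1.39, SE 0.26, adjusted p = 4.55e-05) and Hoxa3 (log2 fold change -1.35, SE 0.26, adjusted p = 7.88e-05), and none rose.

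Among signalling genes of the Wnt, Notch, BMP and TGF-beta pathways falls outnumbered rises. With 56 listed and 51 tested, 40 had a mean above 100, 23 fell, 1 rose and 16 were not called (median log2 fold change -1.03). The falls made up 57.5% of the 40, as against 12.5% of all genes with a mean above 100. Among the ligands Bmp4 fell from 4149.7, 3494 and 3859.8 to 330.5, 1205 and 319 (log2 fold change -2.87, SE 0.44, adjusted p = 9.69e-06), and Tgfb3, Tgfb2 and the Notch ligand Jag1 fell by 2.04, 1.23 and 1.99. Of the Frizzled receptors of Wnt ligands, Fzd1, Fzd2, Fzd3, Fzd4, Fzd5 and Fzd7 fell, Fzd2 furthest (log2 fold change -2.24, SE 0.43, adjusted p = 1.11e-04) and Fzd1 with overlapping libraries, while Fzd6 and Fzd8 had values of -0.76 and -0.90 and were not called. Targets of these pathways fell too, among them the Notch target Hes1 (log2 fold change -2.14) and the BMP targets Id1, Id2 and Id3 (-2.04, -1.44 and -1.19). Notch3 was the exception. It rose from 76.6, 301 and 152 to 504, 289 and 628 (log2 fold change 1.52, SE 0.34, adjusted p = 4.86e-04), and one induced library lay below the highest uninduced one.

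Immediate early and NF-kappaB target genes with a mean above 100 gave more falls than rises, as did all such genes (12.5% lower and 4.62% higher). Of 29 immediate early genes with a mean above 100 (34 listed, 32 tested), 17 (58.6%) fell, 2 rose and 10 were not called. Myc fell from 8676, 5741 and 6322 to 1066, 1524 and 633 normalised counts (log2 fold change -2.72, SE 0.25, adjusted p = 3.67e-09), and Fosl2, a partner of Jun, from 8431, 8526 and 8167 to 941, 2239 and 792. The MAP kinase phosphatase genes Dusp1, Dusp4, Dusp5 and Dusp6 fell, with log2 fold changes of -1.74, -2.09, -1.76 and -2.48. By contrast Egr1 rose from 5563, 9102 and 6327 to 18466, 17248 and 15025 (log2 fold change 1.29, SE 0.21, adjusted p = 1.06e-05), and Nr4a2 from 80.2, 87.1 and 85.6 to 209, 180.2 and 216. Fos and Junb were among those not called, at -0.23 and -0.01. Among 22 NF-kappaB targets with a mean above 100 (34 listed, 30 tested) 9 fell, including Cxcl1 (log2 fold change -2.77, SE 0.38, adjusted p = 1.56e-06) and Lif (log2 fold change -2.43, SE 0.27, adjusted p = 3.11e-08). Il6 was the 1 that rose, from 47.2, 40.04 and 39 to 209, 170.3 and 192. The falls made up 40.9% of the 22. At any mean 4 of the 30 tested passed the limits on p and fold as higher and 10 as lower. Their median log2 fold change was 0.06. Of all genes tested 20.5% passed as higher and 14.1% as lower.

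Among stress and cell death genes with a mean above 100 no rise was called, and the falls are to be read against 12.5% of all such genes. Of apoptosis regulators 9 of 27 fell (33 listed, 31 tested), on both sides of the pathway. The pro-survival genes Bcl2l1 and Mcl1 fell by 1.91 and 1.45 on the log2 scale, and the pro-death genes Bmf and Bbc3 by 2.54 and 1.46, though the 2 groups of libraries overlapped for Bmf. Of p53 targets 6 of 26 fell (31 listed, 29 tested), led by Plk2 and Phlda3. Of integrated stress response genes 5 of 28 fell (32 listed, 31 tested), among them Chac1 (-1.71) and Cebpb (-1.70). Of interferon-stimulated genes 2 of 16 fell, Irgm1 (-2.07) and Ifit2 (-1.06), with 39 listed and 38 tested. Of the sensors of nucleic acids only Trex1, a DNA exonuclease, was called (-1.33), as 1 of 16 (21 listed and tested). The last pair of lists thus held no more falls than all genes. No heat shock chaperone was called among 18 (21 listed and tested). At an adjusted p under 0.05 alone 11 of these were higher and 3 lower. Of all 13496 genes with a mean above 100, 3622 were higher and 5082 lower by that measure.

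Falls among chromatin proteins lay mostly in the Polycomb list. Of 26 proteins of HP1-bound and pericentric heterochromatin, the 1 called was Kmt5c, which trimethylates histone H4 lysine 20 there, and it fell from 712, 1156 and 1007 to 206, 568 and 265 (log2 fold change -1.56, SE 0.32, adjusted p = 2.13e-04). The HP1 genes Cbx1, Cbx3 and Cbx5 were at log2 fold changes of 0.02, 0.12 and -0.15, and the H3 lysine 9 methyltransferases Suv39h1 and Suv39h2 at -0.39 and -0.19. Of 26 Polycomb genes with a mean above 100 (27 listed and tested) 7 (26.9%) fell, as against 12.5% of all such genes. Among them were the chromodomain subunits Cbx2, Cbx6 and Cbx7 (-1.84, -1.26 and -1.48). The catalytic subunit Ezh2 was at 0.44 and was not called. Of 40 coactivators and Mediator subunits only Med22 was called (log2 fold change -1.71, SE 0.12, adjusted p = 6.63e-12). None of 14 lamina and envelope genes was called.

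The cell cycle lists held few calls. None of 35 mitotic kinases, cyclins and checkpoint genes was called, none of 39 centromere and kinetochore genes, none of 51 replication genes and none of 62 histone genes with a mean above 100. Their median log2 fold changes were 0.14, 0.29, 0.33 and 0.33, beside -0.08 over all such genes. At an adjusted p under 0.05 alone, 15, 20, 32 and 7 members were higher and 5, 7, 7 and 1 lower. Of all 13496 genes with a mean above 100, 3622 were higher and 5082 lower by that measure. Of 26 G1/S regulators 5 fell, including the CDK inhibitor genes Cdkn1b and Cdkn2b (log2 fold changes -1.69 and -2.10). Of 49 genes of DNA break repair 2 fell, Xrcc2 and Xrcc3 (-1.14 and -1.12).

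Fibroblast identity was measured with markers and matrix genes. Of 12 fibroblast markers with a mean above 100 (14 listed, 13 tested) 5 fell, namely Pdgfra, Pdgfrb, Acta2, Twist1 and Prrx1, at -1.68, -1.74, -1.35, -1.33 and -1.16. Vim and Fn1 were at -0.12 and -0.16 and were not called. Of 34 collagen and matrix genes (38 listed and tested) 6 (17.6%) fell, as against 12.5% of all such genes, led by Ccn2 (-2.50) and Col6a3 (-2.16). By the difference between the lines 2 were lower, and 3 were called in the Control line. Col6a3 and Acta2 also fell in the Control line, by 2.30 and 2.20 on the log2 scale. For Col6a3 the difference between the lines in that change was 0.14 (adjusted p = 0.806), and for Acta2 0.85 (adjusted p = 0.0911). Of 23 contractile, SRF and YAP target genes (29 listed, 26 tested) 4 (17.4%) fell, led by Amotl2 (-1.97) and Ankrd1 (-1.78). The share over all genes with a mean above 100 was 12.5%.

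Ribosomal protein genes and respiratory chain genes shifted up together under TMM scaling, by less than the limit of a call. Of 80 cytosolic ribosomal protein genes with a mean above 100 (85 listed, 83 tested), 79 had an adjusted p under 0.05 with a higher level, and none passed a log2 fold change of 1. Their median was 0.66. Of all 13496 genes with a mean above 100, 3622 were higher at an adjusted p under 0.05 and 5082 lower. Rpsa was at 71578, 71159.7 and 64189 normalised counts uninduced and 113462, 103098 and 110516 induced, with no overlap (log2 fold change 0.66, SE 0.15, adjusted p = 3.59e-04). Of 73 nuclear-encoded respiratory chain genes 63 were higher at an adjusted p under 0.05 (median 0.46), as were all 13 mitochondrially encoded mRNAs (median 0.60). These shifts were relative to the other genes. Under scaling to the mitochondrial mRNAs the median was 0.09 for the tested ribosomal protein genes and turned to -0.11 for the respiratory chain. The mitochondrial genes took 1.496% ± 0.2003 of all counts before and 2.12% ± 0.261 after induction (SD, n = 3; exact permutation test, two-sided, p = 0.1 and the lowest possible).

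**Figure D4:**
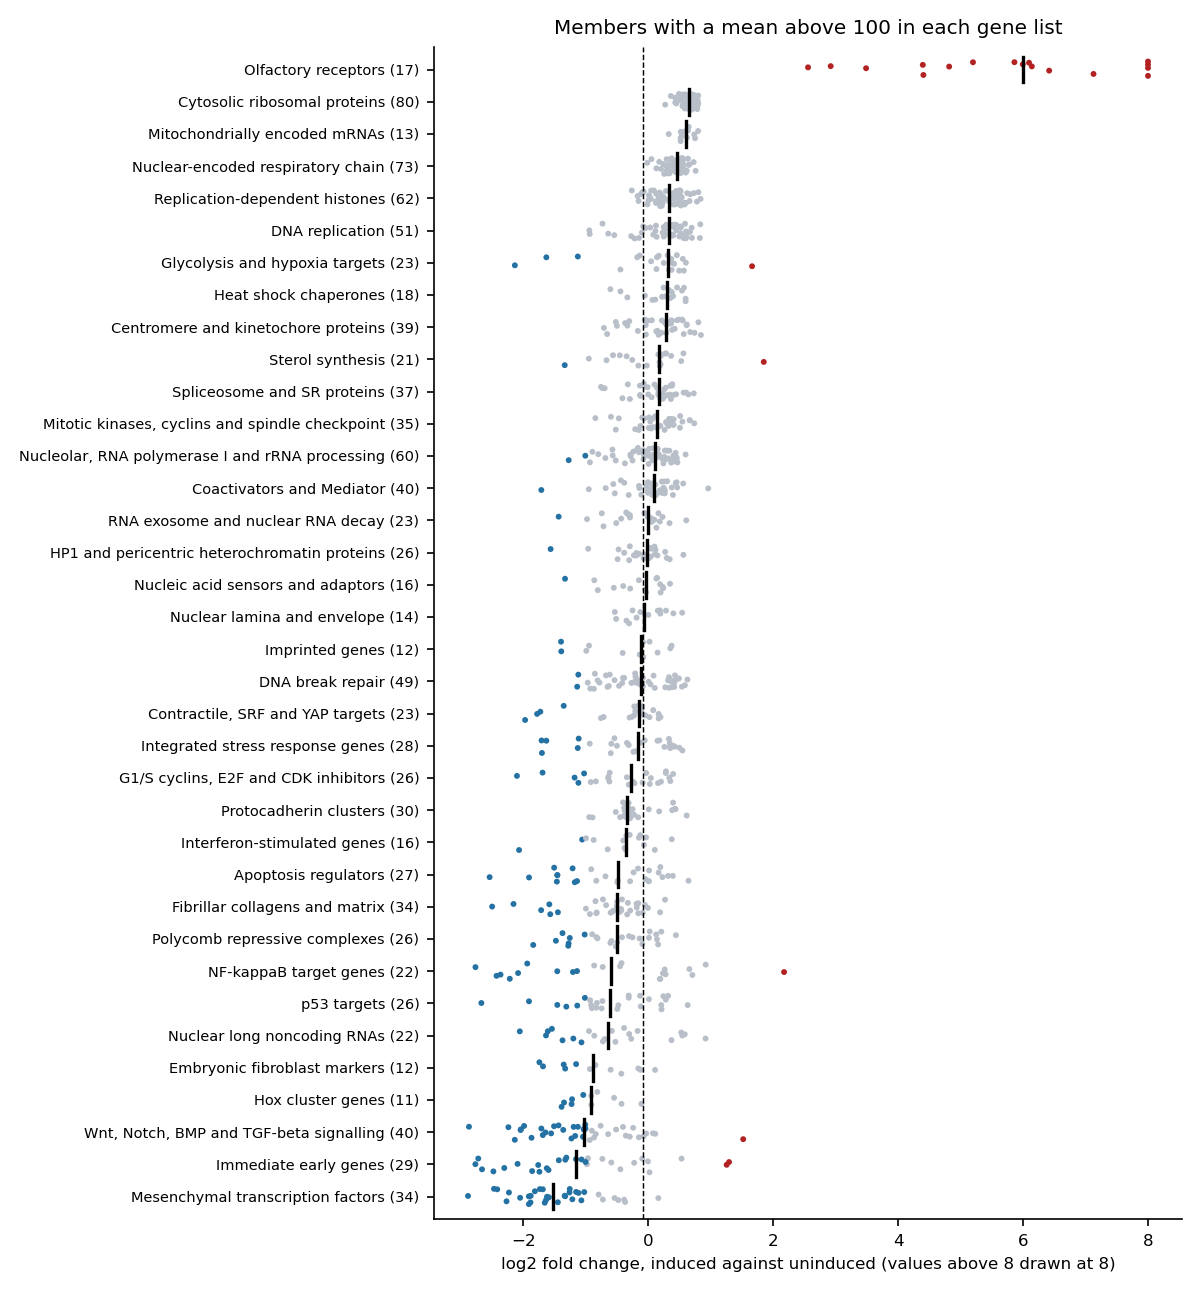
Log2 fold changes on induction of the members with a mean above 100 in 36 gene lists, with the number of such members in brackets, red for genes called higher, blue for genes called lower and grey for the rest. Black bars are list medians and the dashed line is the median of all such genes at -0.08, which the mesenchymal, immediate early and signalling lists lie below. Values above 8 are drawn at 8, and olfactory receptors reach this mean only through their induced libraries.

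Nuclear long noncoding RNAs fell in 31.8% of cases, as against 12.5% of all genes with a mean above 100. The other lists held few calls. Of 22 nuclear long noncoding RNAs with a mean above 100 (26 listed, 23 tested) 7 fell, with Mir17hg (-2.06) and Snhg5 (-1.64) the furthest, and Malat1 and Neat1 were at -0.58 and -0.31 without a call. Among 23 glycolysis and hypoxia genes Vegfa (-2.14), Ddit4 (-1.63, with overlapping libraries) and Hk2 (-1.13) fell and Slc16a3, a lactate transporter, rose (1.66). Of 12 genes in the imprinted list, which does not hold Zdbf2, Zrsr1 and Airn fell (-1.40 and -1.39). Of 21 sterol genes Insig1 fell (-1.34, with overlapping libraries). Of 60 nucleolar genes Imp3 and Utp3 fell (-1.27 and -1.01), and of 23 genes of nuclear RNA decay Exosc6 (-1.43). No spliceosomal gene of 37 and no clustered protocadherin of 30 was called. At any mean 11 of 44 protocadherins tested were higher, as against 20.5% of all genes tested. The filter on low counts favours members that are high when induced.

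Among repeat families, rises outnumbered falls under TMM scaling and lay mainly in LTR elements, which are remnants of endogenous retroviruses. A family was called at an adjusted p under 0.05 and a log2 fold change beyond 0.5. Of 1461 families tested, 444 (30.4%) were called, 294 higher (20.1%) and 150 lower (10.3%). The libraries did not overlap in 391 of the 444, as against 42.2% of all families, 19.4% with the induced libraries higher and 22.8% with them lower. Of 656 LTR families 215 rose and 22 fell, with a median log2 fold change of 0.33 beside 0.05 over all families. The ERVK group gave 115 rises and 4 falls in 279 families, ERV1 52 and 11 in 136, ERVL 21 and 4 in 106, and ERVL-MaLR 15 and 1 in 104. Of 25 families named IAP, the intracisternal A particle elements, 15 rose and none fell, and without induced replicate 3 only 8 were called. Of 54 tRNA entries 32 rose and 3 fell. The largest changes called were of tRNA-Ser-TCG (2.68) and tRNA-Thr-ACG (-2.05), both with under 50 normalised counts per library. By the difference between the lines 10 tRNA entries were higher and 1 lower. For tRNA-Ser-TCG that difference was 1.09 and its log2 fold change in the Control line was 1.59, neither of them called. DNA transposons and simple repeats moved the other way, with 14 rises and 40 falls in 194 and 11 and 50 in 269. LINE families gave 10 rises and 12 falls in 157, and SINE families 1 and 2 in 37.

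The split of the repeat calls rested on the scaling more than that of the genes. Without TMM factors 241 families were higher and 253 lower, and under scaling to the mitochondrial mRNAs 74 and 619. In LTR elements the counts were then 178 and 36, and 52 and 127, and the median turned to -0.28 under the mitochondrial scaling. Under that scaling the tRNA entries gave 7 rises and 7 falls, and the families named IAP gave 4 and 3. GSAT_MM and SYNREP_MM rose under each of these scalings. Their log2 fold changes were 6.85 and 5.17 without TMM factors and 6.50 and 4.72 under the mitochondrial scaling.

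Single families outside the satellites rose severalfold. MLT1I-int, an internal part of a MaLR element, was at 29.2, 32.6 and 34.6 uninduced and 499, 228 and 639 induced (log2 fold change 3.83, SE 0.26, adjusted p = 3.50e-44). ERVB5_1-I_MM-int, of the ERVK group, went from 116, 66.2 and 46.8 to 821, 216 and 940.5 (log2 fold change 3.10, SE 0.57, adjusted p = 0.00282), with the rise in induced replicate 2 the smallest. The simple repeat (CAGGG)n went from 364, 354 and 521 to 2831, 1948 and 4085 (log2 fold change 2.84, SE 0.19, adjusted p = 1.88e-48). The steepest falls in families with a mean of at least 100 were of (CATCC)n (log2 fold change -1.45, SE 0.21, adjusted p = 1.98e-10), UCON27 (-1.40), U5 (-1.32), LTR85c (-1.30) and UCON6 (-1.30). Families with members that can still move gave small values. Of 6 families named L1Md, the young LINE-1 elements, 1 rose. L1Md_A was at 41272, 37054 and 49642 and 50498, 41549.5 and 69677 (log2 fold change 0.34, SE 0.16, adjusted p = 0.0764), IAPEz-int at 48375, 45544 and 55602 and 61324, 57445 and 80185 (log2 fold change 0.41, SE 0.16, adjusted p = 0.0281), and MERVL-int at 34373, 26784 and 36525 and 43627, 35982 and 53447 (log2 fold change 0.45, SE 0.16, adjusted p = 0.0176). All 3 stayed within the fold limit, and the groups overlapped for L1Md_A and MERVL-int. Of the SINE families B2_Mm1a rose (0.61) with overlapping groups, and MamSINE1 fell (-0.80).

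**Figure D5:**
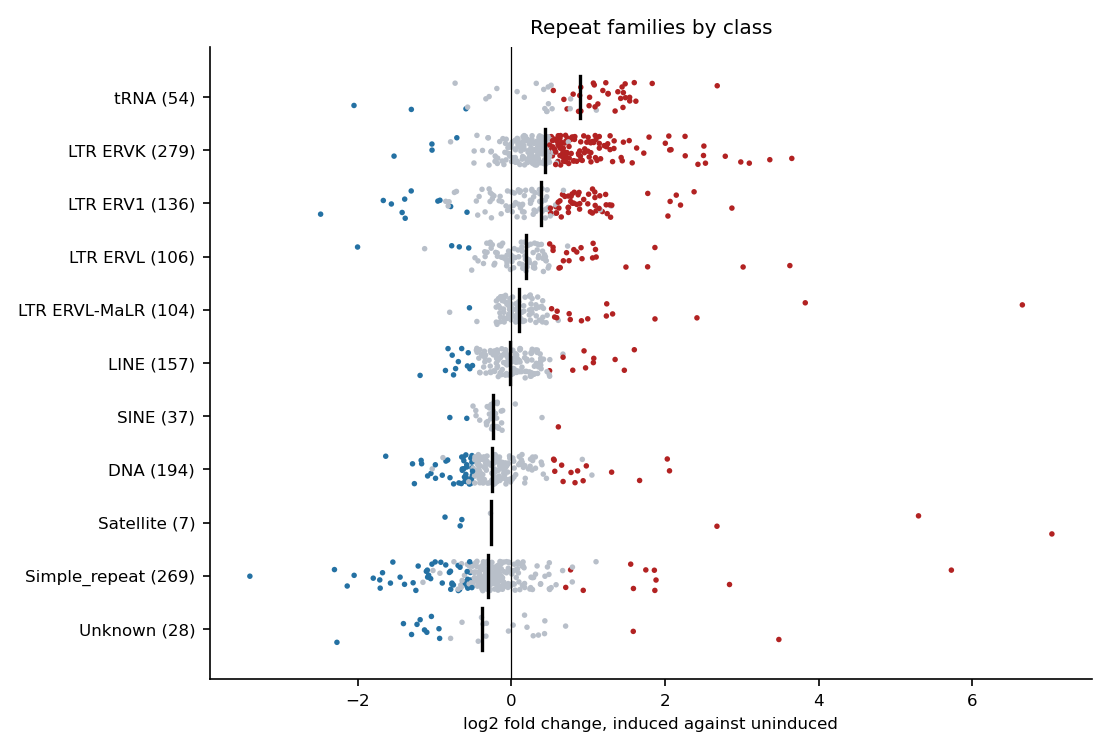
Log2 fold changes on induction of repeat families by class, with LTR families split by group, the number of families in brackets, red for families called higher, blue for lower and grey for the rest, and a black bar at the median. GSAT_MM and SYNREP_MM are the rightmost points of the satellite row at 7.04 and 5.30, and under the TMM scaling drawn here the ERVK and tRNA rows hold most of their points right of 0.

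The share of all counts on repeat families did not move beyond its spread. It was 21.2% ± 1.88 uninduced and 20.5% ± 1.66 induced (SD, n = 3; two-sided exact permutation test p = 0.7). Within it, SINE elements went from 8.24% ± 0.924 to 6.75% ± 0.314, with no overlap (exact p = 0.1, again the lowest possible), and LTR elements from 3.82% ± 0.414 to 4.04% ± 0.469 (exact p = 0.7). The rRNA-like genes took 4.44% ± 2.29 and 7.46% ± 3.22 (exact p = 0.3), and their part in the other shares was not tested.

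Lowered genes differed from other expressed genes in type and structure. Of 48 sense intronic models with a mean above 100, 52.1% fell, of 47 snoRNA genes 38.3%, and of 471 models of the TEC type, whose experimental check is pending, 36.3%, against 11.4% of 11314 protein-coding genes. Among 264 lincRNA genes 18.6% rose and 21.6% fell. The lowered protein-coding genes had a median of 6 exons in their longest-spliced transcript, as against 10 in the expressed and 10 in the raised protein-coding genes, and 25.9% of them had at most 3 exons against 10.3% of the expressed ones. Raised genes were slightly more frequent near chromosome starts, where mouse centromeres lie. Between 8 and 13 Mb 9.38% of 373 genes rose and under 8 Mb 6.53% of 628, as against 4.63% over the autosomes and X. Without the first 0.1 Mb of chromosome 9 the share under 8 Mb was 5.17%. These shares are descriptions without a test.

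The Control line changed in few genes. Its 24 h of doxycycline gave 18 calls among the same 28542 genes (0.0631%), 1 higher (0.0035%) and 17 lower (0.0596%), and 71 genes with an adjusted p under 0.05. No repeat family was called, and 22 had an unadjusted p under 0.05. Of the genes called in the Activator line 9 were also called in the Control line. The change on induction itself differed between the lines in 2010 genes (7.04%), 392 higher (1.37%) and 1618 lower (5.67%) in the Activator line, and in 240 repeat families (16.4%), 164 higher (11.2%) and 76 lower (5.2%). Of the raised genes 358 (57.4%) and of the lowered genes 1371 (81.0%) also passed this test. Its limit on the mean takes in the Control libraries too, so genes scarce there can miss it. A raised gene without this call therefore need not have changed in the Control line. The median log2 fold change in the Control line was 0.03 over the raised and -0.06 over the lowered genes. Leaving out induced replicate 3 gave 1654 genes for the difference between the lines, 252 higher and 1402 lower in the Activator line. Leaving out induced replicate 1 or 2 gave 147 or 386 repeat families in all.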

How the data were processed

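Per the labels and the study's methods, the authors made paired-end stranded total RNA libraries, trimmed the reads with cutadapt and aligned them by STAR (GRCm38). Gene and repeat family counts were made with TEtranscripts. The deposited values are raw counts. The setting for reads with several alignments, the strand setting and the annotation release are not given in the sources used here.

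Genes were fitted with edgeR 4.0.16 (TMM, filterByExpr, robust quasi-likelihood) over 36 libraries with group and replicate number. Repeat families were fitted over 12 libraries with group alone, with library sizes and factors from genes. Adjustment was by Benjamini-Hochberg. Same-numbered libraries deviated together (correlations 0.683, 0.413 and 0.398 over 13496 genes), so the numbers pair the samples. Alternatives were DESeq2 1.42.0, other scalings, filters and limits, and leaving out each replicate. The fits were tested on simulated data.

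The members and gene lists were chosen with earlier results of these data known. The rule named the steepest rises and falls (10 each way over all such genes, 6 among abundant genes, 5 among repeats), up to 2 called members each way per list and fixed families. Other named genes were chosen after their values were seen. Lower bounds on folds cover counting error only. Values of a few list members are not reported here.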

Additional observations from a re-analysis of the deposited data

Results flagged for a closer look

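The change on induction differed between the Activator and Control lines, by the test of the difference in edgeR, in 2010 genes and 240 repeat families. Of 131 genes and repeat families that the naming rule chose, 85 were among them. The values that follow are Activator minus Control line differences in log2 fold change. Induction lasted 6 h in one line and 24 h in the other, and the effector and the length of induction cannot be told apart. Among the steepest rises only Zdbf2 was called, at 11.95, a fitted value without firm meaning as Zdbf2 was at 0 in the uninduced Activator libraries. Ikzf1 and Dock2 were also at 0 there and at most at 0.999 and 1.46 normalised counts in the Control libraries, and were not called. Absence from this list is therefore no sign that a gene changed alike in both lines. Among the steepest falls, those lower in the Activator line were at -3.38 for Gm28119, -3.34 for Has2, -3.16 for Gm26523, -3.12 for Gm37644, -3.11 for Irs1, -3.06 for Gm42680, -2.96 for Gm9747, -2.87 for Adamts1, -2.82 for Gm43953 and -2.63 for 4933400A11Rik. Among the abundant genes, those higher in the Activator line were at 7.65 for Gm10800, 7.14 for Gm21738, 6.99 for Gm26870, 6.94 for Gm11168, 6.81 for Gm10801 and 3.58 for Sfi1. Among the abundant genes, those lower in the Activator line were at -3.01 for 3110039I08Rik, -2.77 for Plk2, -2.63 for Adamts5, -2.43 for Csf1 and -2.03 for Ccn4. Among the repeat families, those higher in the Activator line were at 7.13 for GSAT_MM, 5.18 for SYNREP_MM, 4.71 for UCON18, 4.10 for MLT1I-int, 3.04 for ERVB5_1-I_MM-int, 2.79 for (CAGGG)n and 1.41 for L1M3f. Among the repeat families, those lower in the Activator line were at -5.59 for (CAAGT)n, -2.29 for UCON12A, -1.68 for (CATCC)n, -1.55 for UCON23, -1.43 for UCON6, -1.27 for UCON27, -1.25 for U5, -1.22 for X2_LINE, -1.05 for MMSAT4, -0.93 for LTR85c and -0.74 for MamSINE1. Among the gene lists, those higher in the Activator line were at 5.16 for Pecam1, 3.51 for Tek, 1.94 for Ttn, 1.74 for Egr1, 1.72 for Notch3 and 1.44 for Slc16a3. Among the gene lists, those lower in the Activator line were at -2.94 for Myc, -2.91 for Osr1, -2.74 for Fosl2, -2.69 for Bmp4, -2.67 for Cxcl1, -2.30 for Lif, -2.24 for Sox4, -2.20 for Cdkn2b, -2.17 for Mir17hg, -2.09 for Fzd2, -2.01 for Vegfa and -2.004 for Chac1. Among the gene lists, further ones lower in the Activator line were at -1.99 for Ccn2, -1.97 for Bcl2l1, -1.93 for Amotl2, -1.83 for Ddit4, -1.80 for Cbx2, -1.76 for Phlda3, -1.76 for Kmt5c, -1.71 for Snhg5, -1.68 for Cdkn1b, -1.62 for Irgm1, -1.61 for Cebpb and -1.61 for Ankrd1. Among the gene lists, further ones lower in the Activator line were at -1.54 for Cbx7, -1.52 for Hoxa3, -1.51 for Zrsr1, -1.47 for Pdgfrb, -1.43 for Hoxc13, -1.41 for Pdgfra, -1.40 for Exosc6, -1.33 for Med22, -1.27 for Airn, -1.16 for Trex1, -1.12 for Xrcc3 and -1.08 for Xrcc2. Among the gene lists, further ones lower in the Activator line were at -1.07 for Ifit2, -1.07 for Utp3 and -1.03 for Eif1a. Groups of 3 libraries were too small for a test of a single sample far from the others. Induced replicates 2 and 3 are described above by their values.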

How the results depend on the processing

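The count of genes called, 2317, was 4604 under scaling to mitochondrially encoded mRNAs, under which the median of all tested genes is -0.51, 9887 without the minimum mean (5865 higher and 4022 lower, so that rises were then the larger part, against 624 and 1693) and 5431 with a log2 limit of 0.5. Leaving out each replicate gave 2029 to 2712. The difference between the lines, 2010 genes, was 3205 under the mitochondrial scaling, 5594 without the minimum mean, and 1654 to 2357 with a replicate left out. The 444 repeat families became 693 under the mitochondrial scaling, 202 with a limit of 1, and 379 to 554 with a replicate left out. The difference between the lines, 240 families, became 83 under the mitochondrial scaling and 147 to 386 with a replicate left out. The cause of these moves was not tested, apart from the looser limits. The other settings, DESeq2 included (2067 genes and 450 families), kept these counts within 1.5 times. Adding the replicate block to the repeat fit gave 459 families, 436 of them among the 444, and 287 for the difference between the lines. GSAT_MM was 6.62 with the block and still called. Without the block the gene fit gave 2220 genes, 2213 of them among the 2317, and 1693 for the difference between the lines. Of the named genes 3 were then no longer called. With a replicate left out GSAT_MM ranged from 5.22 to 7.51 and SYNREP_MM from 5.15 to 5.58. The induced minus uninduced share of counts on repeats, -0.68 percentage points, was -1.46 without both satellites and 0.17 with mitochondrial and rRNA-like genes left out of the total, and -1.45 to 0.367 with a replicate left out.

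Some named genes and repeat families lost their call without a change of sign. These were 11 without induced replicate 3, 8 under the mitochondrial scaling and 7 without replicate 1 of either group. Of the single values that changed sign, B2_Mm1a (0.61) was called at first and the others were not. Under the mitochondrial scaling the sign changed for Hprt (-0.31), Csf1r (-0.26), Lmna (-0.56), Hsp90ab1 (-0.10), Top2a (-0.53), Hjurp (-0.14), Rrm1 (-0.45), Atp5b (-0.044), mt-Co1 (-0.052), L1Md_A (-0.27), IAPEz-int (-0.19), MERVL-int (-0.15) and B2_Mm1a (-0.0053). Krt14, at -0.049, was 0.043 in DESeq2 and 0.049 with its size factors, and -0.263 to 0.057 with a replicate left out. Lmna was -0.077 without TMM and -0.106 to 0.080 with a replicate left out. Top2a was -0.049 without TMM and -0.029 to 0.083 with a replicate left out.

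Precision is limited by 3 libraries a group and by low counts in genes silent before induction. It is also limited by induced replicate 2, which changed less in most called genes, and by induced replicate 3, far above the others in GSAT_MM. Reads shared between copies of a repeat cannot be placed.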
